A study of Caenorhabditis elegans with 2 samples.

Results

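The genes described here are 45 named genes of axon guidance, cell migration and synapses, out of 19985 protein-coding genes in the annotation of the C. elegans genome. They were set by name and read in lists of places where a tagged F13H6.1 protein, the product of bcl-11, was enriched on chromatin. All 45 were found in the annotation by symbol. By role they comprise 9 guidance cues, 6 guidance receptors, 15 genes of intracellular signalling, the cytoskeleton and cell migration, 5 genes of synapse assembly and axonal transport, 9 genes of transmitter release, and maco-1. The cues, receptors and intracellular genes make up the 30 guidance and cytoskeleton genes that are set beside the 9 release genes.

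The measurement was ChIP-seq, in which chromatin is sheared, the fragments held by a protein are recovered with an antibody, and sequencing locates them in the genome. The series has 1 group of 2 biological replicates, with no other genotype, stage or treatment. Both replicates came from hermaphrodite worms of strain OP471, which carries the unc-119(tm4063) III allele and the insertion wgIs471, a transgene that adds GFP-FLAG to the C terminus of F13H6.1. Embryos were taken whole at a late stage, 5 h after synchronization by bleaching, and the antibody was directed at GFP. The chromatin of every embryonic tissue was pooled, and neurons are only some of these cells. The lists hold no expression values, so neither the stage nor the presence of neurons could be checked against marker genes.

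A growing axon is steered by secreted or membrane-bound cues such as netrin, Slit, ephrins and semaphorins. Receptors on the growth cone read these cues and pass them to regulators of actin and microtubules, many of which also serve in cell migration outside the nervous system. Once a synapse forms, active zone scaffolds and motor proteins place the vesicles, and a core of SNARE proteins with their regulators fuses them to release transmitter. BCL11 proteins are zinc finger transcription factors that act in blood and neuronal development in mammals.

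The pooled reads of both replicates gave 21824 permissively called regions, and the reproducibility threshold kept 1065 of them, called sites below. Each region has a summit, the base of highest enrichment, and a signal in the peak caller's own units, so that signals can be ranked within a list and not between lists. The sites ran from a signal of 82.1 upward with a median of 112.3, and the pooled regions had a median of 30.8. A gene was scored by summits in its promoter window, the span reaching 1000 bp before and 500 bp after each of its annotated transcript starts, and by summits in its introns. The sequencing depth behind these lists is unknown.

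A site lay in the promoter window of 10 of the 45 genes (22.2%, 95% Wilson interval 12.5 to 36.3), against 788 of all 19985 coding genes (3.94%). An intron held a site in 6 of the 45 (13.3%, 6.26 to 26.2), against 234 coding genes (1.17%). With both places together, 14 of the 45 genes had a site (31.1%, 19.5 to 45.7), against 925 coding genes (4.63%). The genes that head the list, syd-2, unc-76, maco-1, vab-10 and unc-115, all 5 had a window site, and the list was made with such results known. Of the other 40 genes, 5 had a window site (12.5%). These intervals cover counting error only, and neighbouring or overlapping genes are not independent.

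The sites were spread unevenly over the roles. The intracellular, cytoskeletal and migration genes held a window site in 7 of 15 (46.7%, 24.8 to 69.9) and a site in either place in 9 of 15 (60.0%, 35.7 to 80.2). This group includes mig-22, an enzyme of glycan synthesis, without which the window count was 6 of 14 (42.9%). It also includes unc-76, vab-10 and unc-115, from the head of the list made with results known. Its share, and that of the 30 guidance and cytoskeleton genes below, therefore depends in part on how the genes were chosen. Of the 6 receptors, unc-40 alone had a site. None of the 9 cues had one, which allows a share of up to 33.3% at this number of genes. Across all 30 guidance and cytoskeleton genes the window count was 8 (26.7%, 14.2 to 44.4), and across the 9 release genes it was 0, which again allows up to 33.3%. These intervals overlap, and the difference between the groups was not tested because the genes were named with results known. For the cues and for the release genes, 0 of 9 also allows the 3.94% of all coding genes with a window site. Among the 5 assembly and transport genes, syd-2 had a window site and syd-1 and unc-104 had intronic sites.

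**Figure D1:**
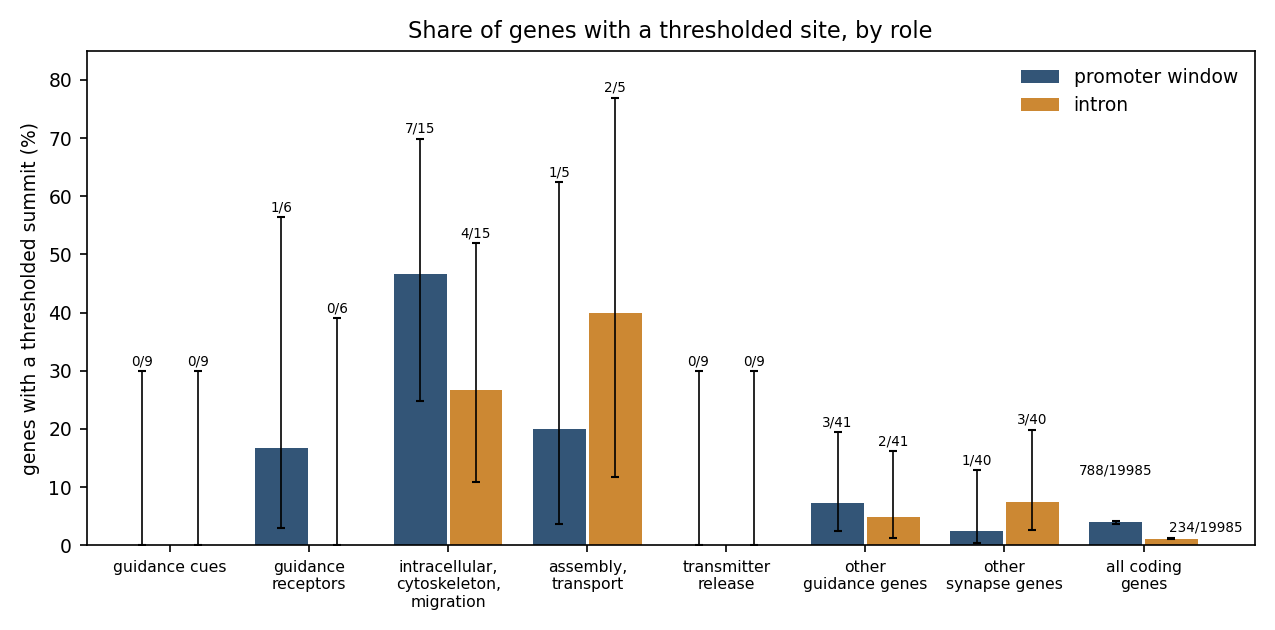
Percent of genes in each role with a thresholded summit in the promoter window (blue) or in an intron (orange), with 95% Wilson intervals and the counts above the bars. The intracellular, cytoskeletal and migration genes reach 46.7% in the window, the cues and the transmitter release genes stand at 0 of 9, and all coding genes stand at 3.94% and 1.17%. The intracellular group includes unc-76, vab-10 and unc-115, from the head of the list made with results known.

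The DNA under 4 window sites is printed as examples with and without a repeat word that is counted over all sites further on. The stretches span 101 bp around each summit on the + strand of WBcel235 (ce11), from the RefSeq copy of that genome, and capitals mark GAGAG or its complement CTCTC. The unc-115 stretch is chrX:10146739-10146839, the unc-76 stretch chrV:15071364-15071464, the syd-2 stretch chrX:10555570-10555670, and the mig-22 stretch chrIII:8768051-8768151.
unc-115: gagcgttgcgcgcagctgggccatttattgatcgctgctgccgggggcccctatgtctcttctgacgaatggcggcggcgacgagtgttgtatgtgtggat
unc-76: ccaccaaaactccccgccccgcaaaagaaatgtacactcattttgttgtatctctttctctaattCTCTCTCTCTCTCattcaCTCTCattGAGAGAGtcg
syd-2: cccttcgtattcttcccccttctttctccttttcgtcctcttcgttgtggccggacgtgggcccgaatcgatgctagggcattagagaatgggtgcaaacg
mig-22: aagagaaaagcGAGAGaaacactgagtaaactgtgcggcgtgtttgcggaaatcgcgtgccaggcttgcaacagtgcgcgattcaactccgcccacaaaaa
The unc-76 stretch carries a run of CTCTC repeats, the mig-22 stretch a single GAGAG, and the other two carry neither word.

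The intracellular, cytoskeletal and migration genes held most of the sites. The site of unc-115, an actin-binding protein of the abLIM type, was at X:10146561-10147016 with its summit 103 bp upstream of a start. Its pooled signal was 124.3, rank 407 of the pooled regions, with 45.2 in replicate 1 and 87.2 in replicate 2. The site of unc-76, a coiled-coil protein of axon bundling related to the FEZ proteins, was at V:15071186-15071641, 346 bp upstream. Its pooled signal was 113.8, rank 514, with 51.6 in replicate 1 and 66.5 in replicate 2. These summits lay between genes, and each was in the upper part of both replicates' lists, at ranks 861 and 191 for unc-115 and 643 and 404 for unc-76.

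The chondroitin polymerizing factor mig-22, needed for the migration of gonadal tip cells, had a site at III:8767873-8768328 with a pooled signal of 118.9 and rank 459. Its signal was 61.4 in replicate 1 and 54.0 in replicate 2. The summit was 759 bp upstream of mig-22 but 210 bp from mtss-1, whose window it shares, so the site cannot be assigned to either gene. The migration gene mig-38 had 2 sites, at IV:11593350-11593805 and IV:11594252-11594707. The upstream one was 666 bp from the start, inside an intron of the neighbouring F40F11.3, with a pooled signal of 93.1 (rank 818), 58.7 in replicate 1 and 43.8 in replicate 2. The other was 236 bp downstream, in a 363 bp intron of mig-38, with a pooled signal of 83.7 (rank 1027), 40.9 in replicate 1 and 46.3 in replicate 2. Both also lay in the window of F40F11.3.

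The unc-73 gene, which encodes a guanine nucleotide exchange factor of the Trio family, had a site at I:4032430-4032885. Its summit was 919 bp upstream, the farthest of the window sites, and its pooled signal of 105.3 (rank 615) came with 37.8 in replicate 1 and 66.4 in replicate 2. The site of unc-14, a RUN domain protein that binds the kinase UNC-51, was at I:7128112-7128567, 94 bp upstream, the nearest of them. Its pooled signal was 120.5 (rank 445), with 64.3 in replicate 1 and 55.4 in replicate 2. The spectraplakin gene vab-10, whose product links actin and microtubules, had the highest signal of all 15 sites, 127.5 (rank 378), with 48.3 in replicate 1 and 77.0 in replicate 2. This site, at I:11792727-11793182, was 830 bp upstream of an internal start and inside a 4923 bp intron, so it counts in both places.

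Among the receptors, unc-40, the netrin receptor of the DCC family, had a site at I:5691511-5691966, 236 bp upstream. Its pooled signal was 122.1 (rank 431), with 54.1 in replicate 1 and 71.6 in replicate 2. It shares the window of npp-7, a nuclear pore gene. The assembly gene syd-2, the liprin-alpha scaffold of the active zone, had a site at X:10555392-10555847, 381 bp upstream and within the noncoding gene F59F5.9. Its pooled signal was 126.0 (rank 389), with 54.2 in replicate 1 and 79.0 in replicate 2. The site of maco-1, a macoilin of neuronal membranes, was at I:6608064-6608519, 772 bp upstream, with a pooled signal of 84.5 (rank 998). Its signal was 56.5 in replicate 1, from a summit 174 bp away, and 52.1 in replicate 2.

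Of the 11 window sites, 10 lay upstream of the gene's nearest start and 1, in mig-38, downstream, and the median distance over all 11 was 381 bp. Over all 15 sites of the 14 genes the pooled signal ran from 83.7 to 127.5 with a median of 112.6, close to the median of 112.3 over all 1065 sites. The genes' sites were therefore of middling signal, and none ranked above 378. The summit was intergenic in 7, intronic in 6, in a noncoding gene in 1 and at a small RNA gene in 1. Pseudogenes were not counted as small RNA genes here, so the unc-104 summit, 1 bp from a tRNA pseudogene, counts as intronic. So does the mig-38 summit in an intron of F40F11.3. The syd-1 summit and the downstream mig-38 summit also count as intronic, though they lie in the noncoding genes F35D2.16 and F40F11.5 as well. In 10 of the 15 (66.7%) the site's regions were among the 1065 highest of both replicates, against 741 of all sites (69.6%). The 5 that were not are those of unc-73, mig-10, unc-104 and both of mig-38.

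**Figure D2:**
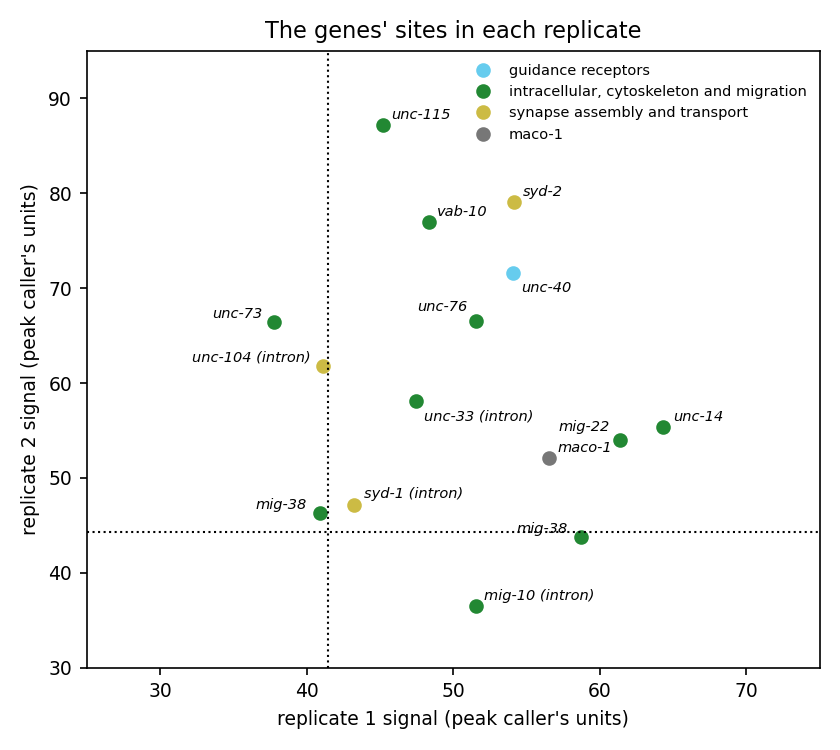
Signal of the 15 sites of the listed genes in replicate 1 (x axis) and replicate 2 (y axis), each in the peak caller's own units, coloured by role. Dotted lines mark the 1065th highest region of each replicate, at 41.5 and 44.4, and 10 of the 15 sites lie above both.

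Intronic sites were found in vab-10 and mig-38, given above, and in mig-10, unc-33, syd-1 and unc-104. The mig-10 gene, an adaptor of the lamellipodin family that links guidance receptors to actin, had a site at III:8287544-8287999. It lay 5665 bp downstream of a start, in an 11678 bp intron, with a pooled signal of 89.7 (rank 885), 51.6 in replicate 1 and 36.5 in replicate 2. The syd-1 gene, a regulator of presynaptic assembly, had a site at II:7593284-7593739 in a 2542 bp intron, 1400 bp downstream, where the noncoding gene F35D2.16 also lies. Its pooled signal was 93.2 (rank 815), with 43.2 in replicate 1 and 47.2 in replicate 2.

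The other intronic sites lay beside small RNA genes within the host gene, and their DNA is printed for that reason, from WBcel235 (RefSeq), + strand. Capitals mark the bases of the small RNA gene. In unc-33, whose product of the CRMP family organizes microtubules in axons, the window chrIV:3524739-3524839 ends in a tRNA-Arg gene, M57.t1. In unc-104, the kinesin that carries synaptic vesicle precursors, the window chrII:7001576-7001676 runs into a tRNA pseudogene, C52E12.t1.
unc-33: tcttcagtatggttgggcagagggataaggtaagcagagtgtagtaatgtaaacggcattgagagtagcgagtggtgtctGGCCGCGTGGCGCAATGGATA
unc-104: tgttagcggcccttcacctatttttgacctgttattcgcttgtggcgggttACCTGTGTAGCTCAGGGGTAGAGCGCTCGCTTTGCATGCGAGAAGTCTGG
The unc-33 summit was 30 bp from the tRNA gene and the unc-104 summit 1 bp from the pseudogene.

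The unc-33 site, at IV:3524561-3525016, lay in a 610 bp intron 5105 bp downstream of a start and had a pooled signal of 112.6 (rank 530), with 47.5 in replicate 1 and 58.1 in replicate 2. The unc-104 site, at II:7001398-7001853, lay in a 4567 bp intron 5694 bp downstream and had a pooled signal of 103.4 (rank 637), with 41.1 in replicate 1 and 61.8 in replicate 2. Of all intronic sites in coding genes, 73 of 274 (26.6%) were within 100 bp of a tRNA, snoRNA or snRNA gene or a tRNA pseudogene, and 2 of the 6 here were. Whether the enrichment at unc-33 and unc-104 belongs to the small RNA gene or to the host gene was not tested.

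**Figure D3:**
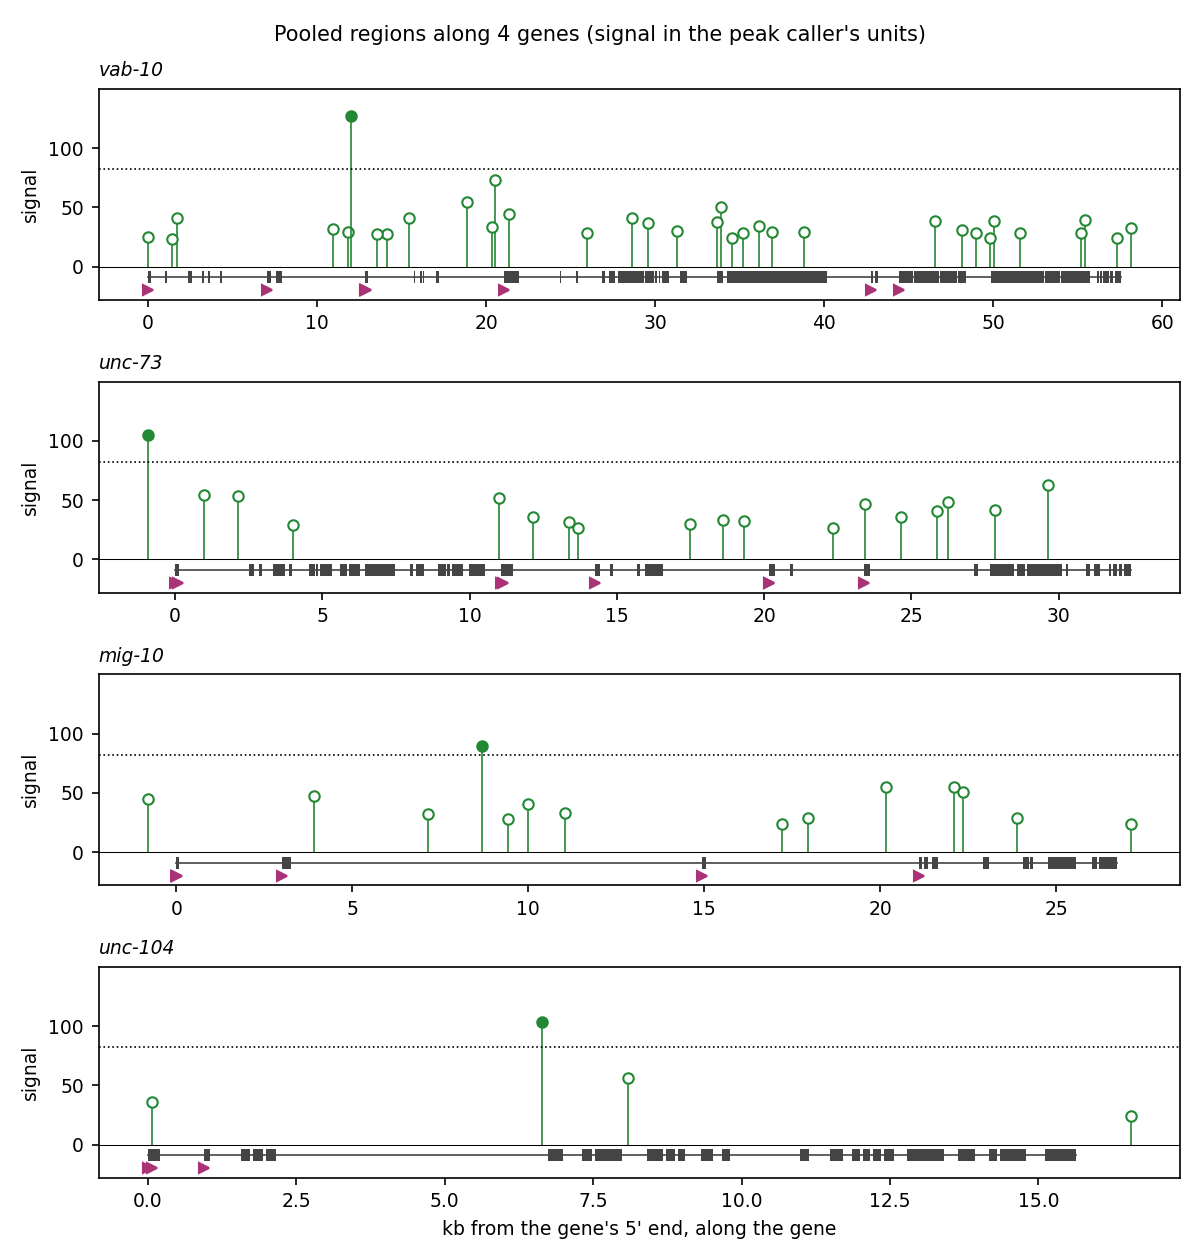
Pooled regions along vab-10, unc-73, mig-10 and unc-104, by distance from the gene's 5′ end in kb (x axis) and signal in the peak caller's units (y axis). Filled points are thresholded sites, open points lie below the threshold, the dotted line is the lowest site at 82.1, grey boxes are exons and purple triangles are transcript starts. Each gene has 1 filled point among weaker regions along its length.

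Below the threshold the cues and the release genes were not empty. A pooled region lay in the window of 32 of the 45 genes (71.1%), against 7293 coding genes (36.5%), and in an intron of 31 (68.9%), against 3838 coding genes (19.2%). Of all coding genes, 8697 (43.5%) had a pooled region in the window or an intron. The 9 release genes had a region in the window in 7 and in the window or an intron in all 9, and the 9 cues in 4 and 6. Many of these regions were not found in both replicates, as held for all pooled regions, of which 48.5% were in both. With only regions in both replicates, 25 of the 45 genes kept one in the window. Of the release genes these were rab-3, unc-10 and unc-18, and of the cues only mab-20. The matching share of all coding genes is not given here, so the count of 25 stands without a comparison. Of the 32 genes with a pooled region in the window, 10 (31.2%) had a thresholded one, against 788 of the 7293 coding genes with such a region (10.8%). These 10 include the 5 genes at the head of the list, which was made with such results known. The share of 31.2% therefore depends in part on how the genes were chosen.

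The cues' highest window signal was that of mab-20, a semaphorin, 58 bp upstream at I:1651287-1651742, where it was 48.8 (rank 3418), with 23.9 in replicate 1 and 25.8 in replicate 2. That of slt-1, the Slit ligand, 163 bp upstream at X:14673937-14674392, was 39.2 (rank 5927), with 25.7 in replicate 1 and no overlapping region in replicate 2. For the release genes the highest window signals ran from 23.0 to 46.6. The top was rab-3, a GTPase of synaptic vesicles, 143 bp upstream at II:5727768-5728223, with 46.6 (rank 3813), with 27.0 in replicate 1 and 15.6 in replicate 2. It was followed by unc-13, a vesicle priming factor, in an intron at I:7442588-7443043 and 220 bp upstream of an internal start, with 35.5 (rank 7634), with 26.8 in replicate 1 and no overlapping region in replicate 2. As no release gene had a site, their highest signal was below the 82.1 of the weakest site. The median signal of their window regions was 31.5, close to the 32.1 of those of all coding genes.

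Among the receptors, vab-1, an ephrin receptor, came nearest to the threshold without passing it, at II:4571074-4571529, 698 bp upstream, with a window signal of 73.3 (rank 1368), 29.1 in replicate 1 and 37.8 in replicate 2. The Robo receptor sax-3 had, at X:3466090-3466545 and 391 bp upstream, a signal of 52.1 (rank 2922), with 25.5 in replicate 1 and 21.6 in replicate 2. The netrin repulsion receptor unc-5 had its highest signal in an intron, at IV:5526918-5527373, 65.6 (rank 1730). Among the intracellular genes, unc-44, an ankyrin, had in a coding exon at IV:5985679-5986134 a window signal of 67.5 (rank 1618), with 53.5 (rank 592) in replicate 1 and only 14.3 (rank 18389) in replicate 2. The GTPase mig-2 had, at X:11547654-11548109 and 726 bp upstream, a signal of 47.4 (rank 3650), with 29.1 in replicate 1 and 13.4 in replicate 2. On the other side of the threshold the lowest sites were those of mig-38 at 83.7, maco-1 at 84.5 and mig-10 at 89.7.

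No pooled region lay in the window of 13 genes, namely efn-2, efn-4, unc-129, madd-4, smp-1, ced-10, unc-33, unc-51, unc-69, sad-1, rpm-1, unc-64 and ric-4. Of these, efn-2, unc-129, madd-4 and unc-69 had none in an intron either. Some long genes held many regions and others few. The introns of vab-10 held 15 pooled regions, those of unc-73 held 14, those of mig-10 held 12 and those of vab-1 held 8. By contrast, the introns of unc-5 held 5, those of plx-1 held 3 and those of unc-13 held 2.

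**Figure D4:**
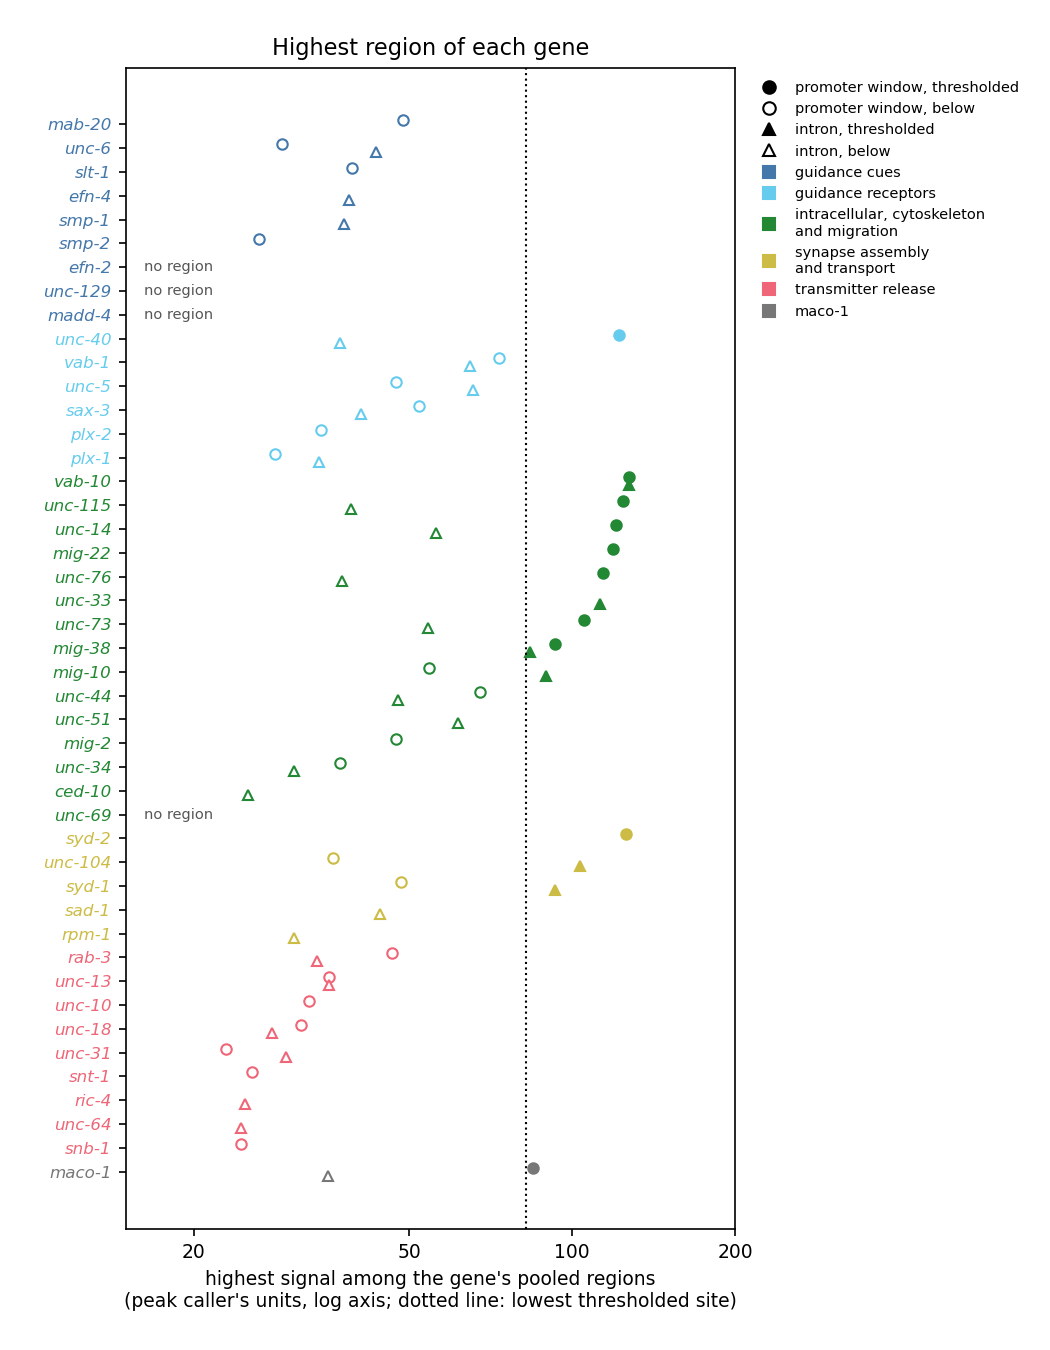
Highest signal among the pooled regions of each of the 45 genes, in the peak caller's units on a log axis, for the promoter window (circles) and the introns (triangles), ordered by role and coloured likewise. Filled marks are thresholded sites; the dotted line is the lowest of all sites, at 82.1. Cues and release genes lie to its left, and 4 genes have no region in either place.

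Gene length moved with these counts. The promoter windows of the 45 genes had a median length of 1537 bp, near the 1501 bp of all coding genes. Windows over 3100 bp were commoner among them, in 13 of the 45 against 963 of the 19985 coding genes. The median intron length was 5050 bp against 721 bp. Per 100 kb of window, the 45 genes had 8.17 sites against 1.94 for all coding genes, with 13.0 for the intracellular genes, 5.41 for the receptors and 0 for cues and release genes. The sites of syd-2, unc-76, maco-1, vab-10 and unc-115 are in these rates and in the window counts below. Those genes head the list made with results known. The pooled regions differed less, at 45.3 per 100 kb of window for the 45 genes, 38.2 for release genes, 28.1 for cues and 26.6 for all coding genes. Per 100 kb of intron the 45 genes had 1.77 sites against 0.806. Pooled regions per 100 kb of intron were 32.2 for the 45 genes and 20.9 for all coding genes. Release genes had 15.6 and cues 15.6, both below all coding genes. Among coding genes with over 10000 bp of intron, 13.0% had an intronic site, and 3 of the 9 listed genes of that size did. Among those with 5000 to 10000 bp, 5.44% did, and 2 of the 14 listed genes. Among genes whose window was at most 1600 bp, 3.25% of coding genes had a window site, and 4 of 23 listed genes did, with 0 of the 5 release genes of that size. With windows of 1600 to 3100 bp, 5.71% of coding genes and 3 of 9 listed genes had one. Over 3100 bp, 9.97% of coding genes and 3 of 13 listed genes did.

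Other genes of these pathways were counted in the same way. A further 41 guidance genes and 40 synapse genes had a window site in 4 of 81 (4.94%, 1.94 to 12.0), against 3.94% of coding genes. They had an intronic site in 5 of 81 (6.17%), against 1.17% of coding genes. Their introns were longer, with a median of 3950 bp per gene against 721 bp. Per 100 kb of intron they had 0.996 sites, close to the 0.806 of all coding genes. Per 100 kb of window they had 1.74 sites, against 1.94 for all coding genes. Those with a site were wve-1, unc-70, sax-2, nsf-1, unc-41, cat-1 and lin-2. The intronic sites of unc-70, unc-41 and cat-1 were within 100 bp of a tRNA or snoRNA gene. The highest was unc-41, a stonin of vesicle recycling, whose intronic site had a pooled signal of 232.3 (rank 67) and lay 55 bp from the snoRNA gene C27H6.5, with 117.9 in replicate 1 and 114.1 in replicate 2. The vesicle fusion ATPase nsf-1 had a window site of signal 153.9 (rank 248), with 80.5 in replicate 1 and 74.7 in replicate 2, in a window shared with adr-1. These genes had pooled regions in the window in 55 of 81 (67.9%), close to the 71.1% of the listed genes.

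The DNA at the 15 sites was searched for TGACCA, which mammalian BCL11A binds, on either strand within 50 bp of the summit. It was present at 1 of the 15 sites (6.67%), that of unc-73, at 40 of all 1065 sites (3.76%) and at 756 of the 20419 pooled regions that overlap no site (3.7%). GAGAG or CTCTC, words chosen after the sequences had been seen, was present at 9 of the 15 sites (60.0%), at 45.7% of all sites and at 22.3% of the regions without a site. CGCCC or its complement GGGCG was present at 3 of the 15 sites, at 22.9% of all sites and at 10.4% of the regions without a site. The median GC content of these windows was 50.5% at the 15 sites and at all sites, and 42.6% at the regions without a site, so base composition moved with both words. Its part in the words' shares was not tested.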

How the data were processed

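Per the labels, the libraries are ChIP-seq of F13H6.1-GFP-FLAG from 2 biological replicates of whole embryos. The authors deposited lists of enriched regions per replicate (19517 and 21972) and for pooled reads (21824), and a thresholded list of 1065 regions, all on ce11 (WBcel235). The deposited signal column is a score from the authors' peak caller; its scale is not stated. The aligner, caller, versions and reproducibility cutoff were not given in the sources used here. Control libraries and signal tracks were not analysed here. The ce10 thresholded list, 1362 regions, served only for its number.

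Genes came from Ensembl release 115 and sequences from the RefSeq copy of WBcel235, with positions 1-based. A gene had a site when a summit lay in its promoter window, or in an intron and in no exon of that gene. The code was tested on simulated data. No test was made across genes: shares stand with 95% Wilson intervals beside those of all coding genes, and a count of 0 of 9 was bounded by 3 counts.

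The genes and lists were chosen with earlier results of these data known. The genes named with values were every listed gene with a site and, per role, the 2 highest others by window signal; unc-5 and the counts of regions in long genes were named after their values were seen. Alternatives changed the window, the overlap, the threshold and the replicates used. The calculations used Python 3.11.15, numpy 2.4.6, pandas 2.3.3, scipy 1.17.1 and matplotlib 3.10.9.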

Additional observations from a re-analysis of the deposited data

How the results depend on the processing

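With 500 bp upstream in place of 1000 bp, window sites fell from 10 to 6 of the 45 genes and from 8 to 5 of the 30 guidance and cytoskeleton genes (all coding genes 3.08%). For the 45 genes, the 30 and all coding genes in turn, the counts were 13, 10 and 5.19% with 2000 bp upstream, 11, 9 and 4.35% with any overlap, 7, 6 and 2.03% with the 532 sites of highest signal, and 15, 10 and 4.76% by nearest coding start. They were 8, 6 and 2.75% with sites among the highest of both replicates and 10, 8 and 4.88% with as many pooled regions as the ce10 list. Without mig-22, 7 of 29 guidance and cytoskeleton genes had a window site. These last 3 settings were chosen after seeing the data. The count of release genes with a window site was 0, except that assigning each site to its nearest coding start gave 1, unc-31, from a site 2209 bp upstream, and counting the assembly and transport genes with them gave 1, syd-2. The intron count of 6 fell to 2 with the 532 sites of highest signal and to 3 with sites among the highest of both replicates. Each replicate was also left out, using as many of the highest regions of the other. Window sites were then in 10 to 11 of the 45 genes and 8 to 9 of the 30 (all coding genes 3.81% and 3.83%). No release gene had one, and 4 to 5 genes had intronic sites. Pooled regions lay in the window of 32 genes without either replicate (all coding genes 36.3% without replicate 1, 33.9% without replicate 2). The genes behind equal counts changed. Without replicate 2, unc-44 took the place of unc-73 among window sites. Of the pooled regions, those of slt-1, snt-1 and unc-13 were lost without replicate 1. Those of smp-2, snb-1, unc-31 and unc-6 were lost without replicate 2. No paired analysis was possible because the series has 1 group. Depth is unknown, so a region missing from a list may be one that was not detectable.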

Other observations

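Outside the windows and introns counted above, 2 listed genes with no site in either place had one farther upstream. The unc-33 gene also gained a window site with 2000 bp upstream or with any overlap. That site is not its intronic one, and its position is not given here. A site at IV:12771430-12771885, 2209 bp upstream of unc-31, the CAPS protein of dense core vesicle release, had a pooled signal of 83.8 (rank 1021), with 26.7 in replicate 1 and 56.4 in replicate 2. A site at IV:5974012-5974467, 1317 bp upstream of a start of unc-44 and inside a noncoding gene, had a pooled signal of 95.4 (rank 773), with 48.0 in replicate 1 and 45.2 in replicate 2. The latter stood at similar ranks in both replicates, 768 and 1024, whereas the region in the unc-44 window ranked 592 in replicate 1 and 18389 in replicate 2.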
